A study of Arabidopsis thaliana with 8 samples.

Results

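The class III peroxidases are a plant family of secreted enzymes that carry heme, an iron-holding cofactor, and this account follows 60 loci of the family in roots of Arabidopsis thaliana. Members were chosen by locus, as rows of the array that the platform annotation assigns to 1 of the 60 loci and to no other gene. A single-gene probe set was found for 42 loci, 1 per locus, of 22746 probe sets on the array that are not controls. A further 7 loci were named only on 4 probe sets shared by several genes, and 11 had no named probe set. Those 18 loci are not analysed here. Of the 42 measured members, 35 entered the tests and 7 lay under the filter on low signal. The 8 arrays, 2 per group, held RNA of whole roots of pye-1 without iron, pye-1 with iron, wild type without iron and wild type with iron. All plants were of the Columbia ecotype, 7 days after germination, and had spent their last 24 h on the named medium. The -Fe medium held 0.3 mM ferrozine, which binds ferrous iron, in place of an iron source, and the +Fe plants were also moved to fresh plates. pye-1 carries a mutation in POPEYE (PYE), which encodes a transcription factor of the bHLH family that acts in roots short of iron. It is the 1 mutant allele studied, and each array is a pool of about 320 roots.

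Class III peroxidases use hydrogen peroxide to oxidise phenolic compounds in the cell wall, and in another reaction mode they make reactive oxygen species. In the first mode they couple lignin monomers and cross-link wall proteins, which stiffens the wall, and in the second they can loosen it. In roots, members of the family are known for the lignin of the Casparian strip in the endodermis, for lignin of the xylem, for root hair growth and for the balance between cell division and elongation. The peroxide is supplied in part by NADPH oxidases of the plasma membrane. Each enzyme molecule needs a heme group, so the family is also a consumer of iron.

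Signals are MAS5 values on a linear scale, 1 per probe set, which weigh each matching probe against its mismatched partner, and every array had a trimmed mean of 250.02. Array medians ran from 91.4 to 97.6. A control level was set on each array by the brightest of 27 probe sets for bacterial genes, and was 11.7 to 23.7. Each change is a difference of log2 means (n = 2 arrays per group) ± its standard error in 1 limma fit of all 8 arrays, and p-values are adjusted by Benjamini-Hochberg over 15922 probe sets with a threshold of 0.05. The 25S ribosomal RNA control was higher on the replicate 2 arrays (1691 to 4047) than on the replicate 1 arrays (242 to 565), so the change within each replicate number and the p with replicate number as a block are given where they matter. PYE read 25.03 and 28.2 without iron and 19.1 and 15.0 with iron in pye-1, against 138 and 149 without iron and 56.7 and 65.1 with iron in wild type. The difference between pye-1 and wild type passed without iron (-2.44 ± 0.27, adjusted p = 0.00311, and up to 0.0616 without either -Fe array of wild type) and missed with iron (-1.84 ± 0.27, adjusted p = 0.0630, and 0.0172 with the block). Of 8 probe sets on a list for iron uptake and its regulators, PYE among them, 7 rose without iron in pye-1 and 7 in wild type. The 8 probe sets are for 7 of the 10 listed loci, and the others had no single-gene probe set. The 7 are PYE, BHLH101, BGLU42, AT1G47400, AT1G74770, AT3G07720 and AT3G12900, so the result covers these genes alone. In pye-1 1 of these calls, for 1 probe set of AT1G74770, was lost without replicate 2 without iron (changes of 1.83 to 2.37 over the fits without 1 array). The other, brighter probe set of this gene rose by 2.10 ± 0.17 in pye-1 (adjusted p = 1.35e-04), with 1.93 to 2.26 in those fits. The samples are whole roots, in which fewer cells of a type and less RNA per cell cannot be told apart.

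Loss of iron for 24 h lowered a small part of the family past the threshold. Without the block no member rose past it, which is near the small share of all tested probe sets that rose. In pye-1, 3 of the 35 tested members fell (0.201% of all tested probe sets fell) and none rose (0.848% rose). In wild type, 4 of the 35 fell, where 0.415% of all tested probe sets fell, and none rose, where 0.559% did. The 3 that fell in pye-1, AT3G49960, AT1G34510 and AT4G26010, were also among the 4 of wild type, and the fourth was AT2G39040. The median change of the 35 tested members was -0.03 in pye-1 and 0.04 in wild type, beside medians of -0.04 and 0.00 over all tested probe sets in those genotypes. The middle part of the family was spread more widely than the array as a whole in both genotypes. In wild type the quartiles were -0.48 and 0.26 among the members and -0.15 and 0.15 over all. In pye-1 the quartiles were -0.30 and 0.15 among the members and -0.20 and 0.10 over all. Between groups, the signals of 11 members were lower on both -Fe arrays than on both +Fe arrays in pye-1 (31.4% of the tested, against 22.1% of all probe sets) and 13 in wild type (37.1%, against 18.7%). Higher on both -Fe arrays were 4 members in pye-1 (11.4%, against 14.0%) and 10 in wild type (28.6%, against 18.8%). The replicates gave the same sign for 22 of 35 members in pye-1 and for 29 in wild type. The share over all tested probe sets was not computed, so these counts have nothing to be read against. Across the 35 members, which share arrays and probe behaviour, the changes in pye-1 and wild type correlated at 0.85, and at 0.54 over the 31 called in neither genotype. Over all 15922 probe sets the correlation was 0.42.

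**Figure D1:**
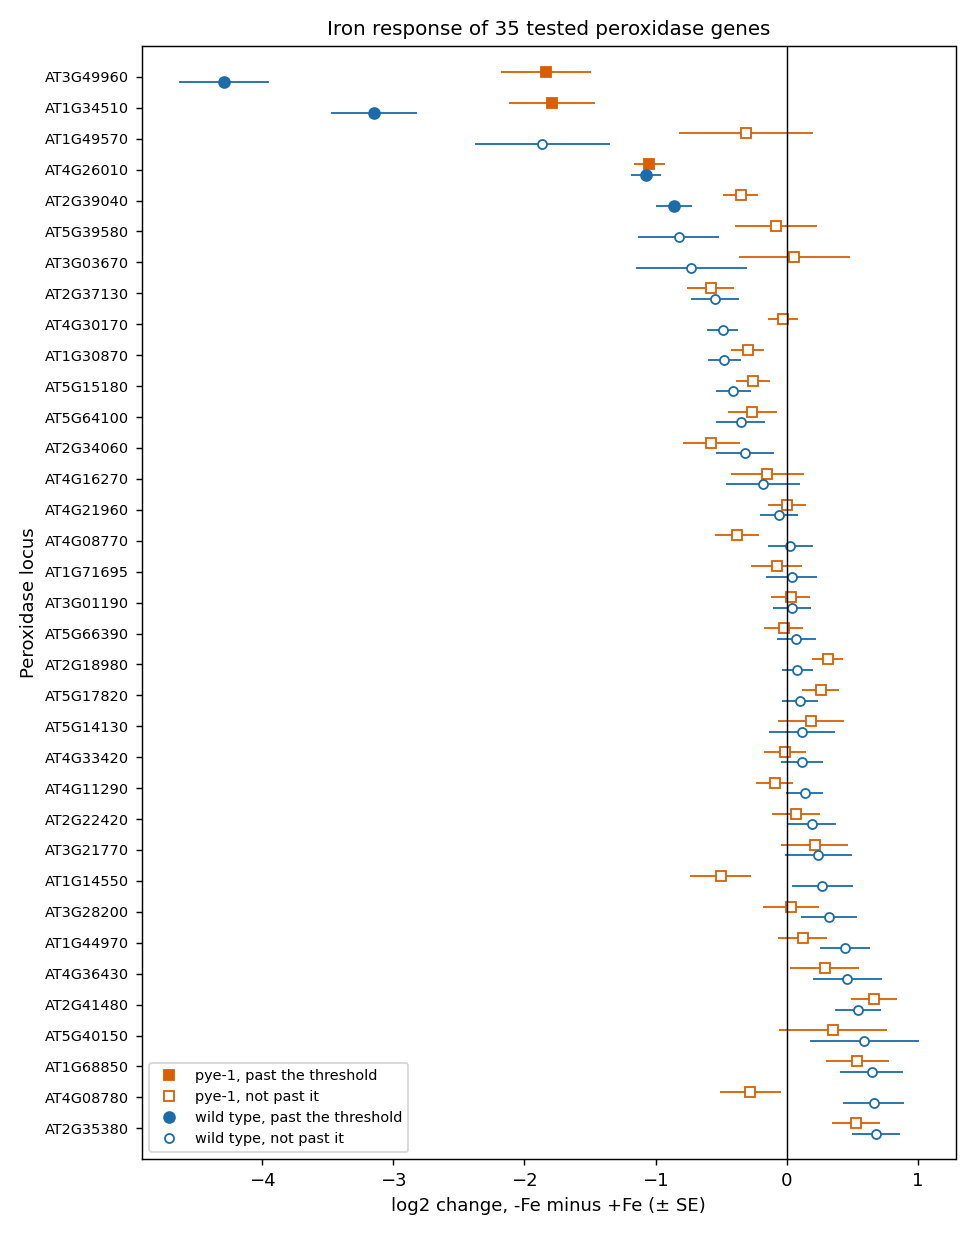
Log2 change without iron against with iron (x axis, ± SE of the limma fit) for the 35 tested peroxidase loci (y axis), ordered by the wild-type change, with pye-1 as squares above wild type as circles and filled symbols for changes past the threshold. AT3G49960 and AT1G34510 lie farthest to the left in both genotypes, and the wild-type value lies beyond the pye-1 value for both.

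The widest fall was that of AT3G49960, which the lists used here place with the root hair peroxidases. Its signal was 76.2 and 77.6 without iron and 230.0 and 326 with iron in pye-1, against 10.9 and 25.9 without iron and 312 and 346 with iron in wild type. The -Fe arrays lay below the +Fe arrays in both genotypes, and the wild-type arrays without iron lay below all others, replicate 1 under its control level of 12.8. In pye-1 the gene fell, with a change of -1.83 ± 0.34 on the log2 scale (adjusted p = 0.0323, replicates -1.59 and -2.07). In wild type the change was -4.29 ± 0.34 (adjusted p = 1.36e-04, replicates -4.84 and -3.74), or -4.17 with signals raised to the control level. Leaving out any 1 of the 8 arrays kept the wild-type call, with changes of -4.92 to -3.66. In pye-1 the call was kept in 2 of those 8 fits and lost without either wild-type array with iron or any of the 4 pye-1 arrays (adjusted p from 0.0533 to 0.259, changes of -2.08 to -1.58).

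The fall of AT1G34510 came next in size in both genotypes. It read 29.3 and 33.7 without iron and 155 and 76.3 with iron in pye-1, against 28.4 and 25.9 without iron and 285 and 202 with iron in wild type. All 4 -Fe arrays lay between 25.9 and 33.7, above their control levels, whereas the +Fe arrays of pye-1 lay below those of wild type. It fell by 1.79 ± 0.33 on the log2 scale in pye-1 (adjusted p = 0.0285), with -2.40 in replicate 1 and -1.18 in replicate 2. In wild type it fell by 3.14 ± 0.33 (adjusted p = 7.57e-04), with -3.33 in replicate 1 and -2.96 in replicate 2, and this passed without each single array. The call in pye-1 was lost without pye-1 replicate 1 with iron (a change of -1.28) and without either -Fe array of pye-1 (-1.69 and -1.89). It was also lost without the intensity trend, with no filter on low values, and in a fit of the pye-1 arrays alone.

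AT4G26010, a peroxidase known to act in root hair growth, fell by a similar amount in both genotypes. The gene read 685 and 736 without iron and 1441 and 1493 with iron in pye-1, against 694 and 634 without iron and 1434 and 1359 with iron in wild type. The -Fe arrays lay between 634 and 736 and the +Fe arrays between 1359 and 1493. The change was -1.05 ± 0.12 in pye-1 (adjusted p = 0.00124) and -1.07 ± 0.12 in wild type (adjusted p = 0.00104), and both calls held in each of the 8 fits without 1 array. The difference between the genotypes in this response was 0.03 ± 0.17.

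AT2G39040 fell past the threshold in wild type. Its signal was 251 and 238 without iron and 298 and 326 with iron in pye-1, against 213 and 208 without iron and 394 and 371 with iron in wild type. Each -Fe group lay below its +Fe group, with a wider gap in wild type. The change was -0.35 ± 0.14 in pye-1, which did not pass (adjusted p = 0.466), and -0.86 ± 0.14 in wild type (adjusted p = 0.0116). Without any 1 of the 4 wild-type arrays the wild-type call was lost, with changes of -0.90 to -0.82 and adjusted p from 0.0574 to 0.127. The difference between the responses was 0.51 ± 0.19 and did not pass (adjusted p = 0.822).

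**Figure D2:**
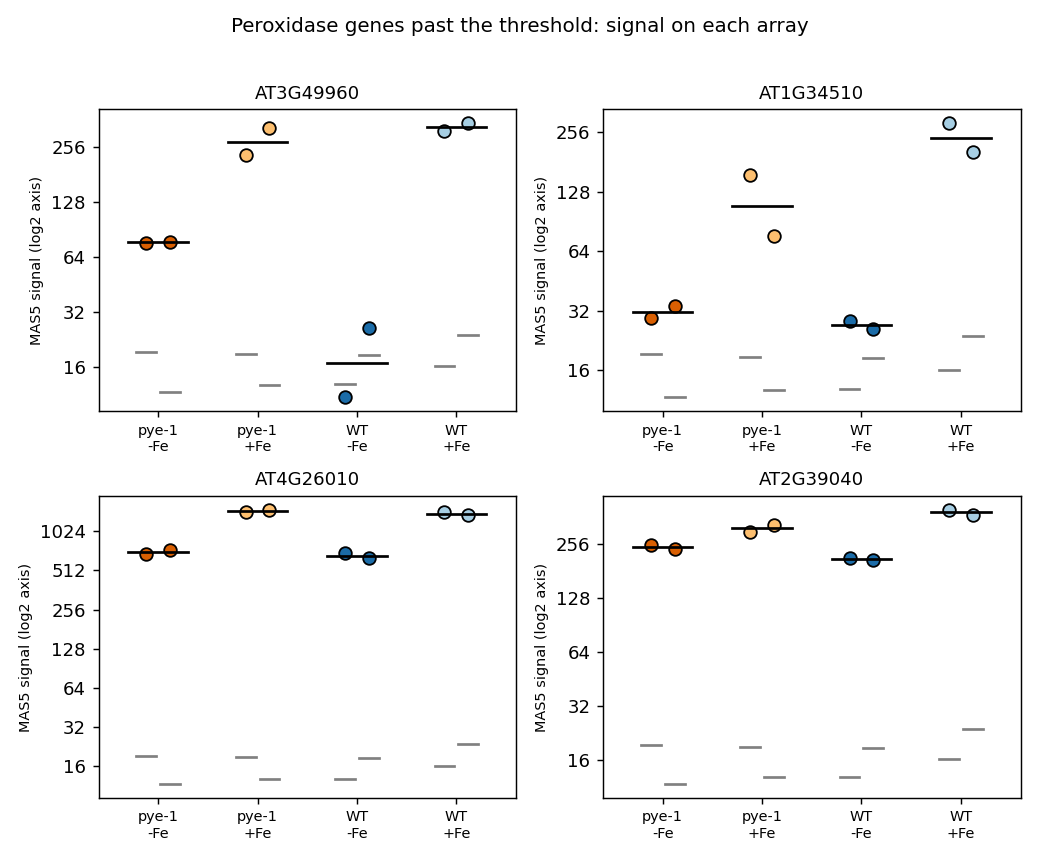
MAS5 signal (y axis, log2 scale) of the 4 peroxidase loci past the threshold in at least 1 comparison, on the 2 arrays of each group (x axis, replicate 1 left of replicate 2), with the mean of the log2 signals as a black bar and the control level of each array as a grey bar. AT3G49960 reads 76.2 and 77.6 in pye-1 without iron and 10.9 and 25.9 in wild type without iron, while AT4G26010 reads alike in the genotypes on each medium.

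Markers of root hairs were read beside these genes. Of 11 listed root hair loci, EXPA7 and EXPA18, expansins of the growing hair wall, had a single-gene probe set. Neither was at the control level on any array. Their summed signal was 885 and 694 in pye-1 without iron and 1089 and 922 with iron, against 828 and 751 in wild type without iron and 1413 and 1056 with iron. The -Fe sums lay below the +Fe sums in both genotypes. EXPA18 had a change of -0.58 ± 0.17 in pye-1 (adjusted p = 0.261, and 0.0160 with the block) and fell in wild type by 0.93 ± 0.17 (adjusted p = 0.0311). The wild-type call was lost without wild-type replicate 1 with iron or either wild-type -Fe array (adjusted p up to 0.293). EXPA7 had changes of -0.19 ± 0.19 in pye-1 and -0.39 ± 0.19 in wild type, and neither passed (adjusted p = 0.870 and 0.619). The part of root hair number in the falls of AT3G49960, AT1G34510 and AT4G26010 was not tested. All -Fe values of EXPA18 lay below all its +Fe values. Those of EXPA7 overlapped, with 560 in pye-1 replicate 1 without iron and 497 in pye-1 replicate 2 with iron. Of 7 listed green tissue loci, 3 had a single-gene probe set, all above the control level. Their summed signal was 566 and 629 in pye-1 without iron and 750 and 802 with iron, and 674 and 647 in wild type without iron and 920 and 888 with iron. Within the green tissue markers PSAN had a change of -0.76 ± 0.18 in pye-1 (adjusted p = 0.103, and 0.0304 with the block) and fell in wild type (-0.93 ± 0.18, adjusted p = 0.0372). The wild-type call was lost in 6 of 8 fits without 1 array, those without any wild-type array or either -Fe array of pye-1 (adjusted p up to 0.335), and the part of green tissue in the peroxidase results was not tested. Listed markers of the Casparian strip scaffold (7 loci) and of xylem walls (5 loci) had no single-gene probe set.

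With replicate number as a block, which removes the shift shared by same-numbered arrays, further members passed. The counts were then 4 lower and 1 higher in pye-1, where 0.961% and 1.69% of all tested probe sets passed, and 9 lower and 1 higher in wild type, where 1.48% and 1.57% did. AT2G37130 read 4574 and 3824 without iron and 7024 and 5568 with iron in pye-1, against 4753 and 4004 without iron and 7521 and 5416 with iron in wild type. Its 4 -Fe arrays lay below its 4 +Fe arrays, with changes of -0.58 ± 0.18 in pye-1 and -0.55 ± 0.18 in wild type (adjusted p = 0.303 and 0.328, and 0.00171 and 0.00269 with the block). In each group its replicate 1 array was the higher.

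AT4G30170 differed between the genotypes in the block fit. The gene read 3772 and 4119 without iron and 3725 and 4339.8 with iron in pye-1, against 2965 and 2989 without iron and 4220.4 and 4129.6 with iron in wild type. The wild-type -Fe arrays lay apart from the other 6, which lay between 3725 and 4339.8. Its change was -0.03 ± 0.12 in pye-1 and -0.49 ± 0.12 in wild type (adjusted p = 0.981 and 0.116, and 0.921 and 0.00813 with the block). Without iron, pye-1 exceeded wild type by 0.40 ± 0.12 (adjusted p = 0.319, and 0.0362 with the block). The difference between the iron responses, 0.46 ± 0.17, did not pass in either fit (adjusted p = 0.818 and 0.189).

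AT1G30870 read 1239 and 1051 without iron and 1433 and 1375 with iron in pye-1, against 1164 and 1129 without iron and 1690.5 and 1501 with iron in wild type, and AT5G15180 read 704 and 600.3 without iron and 811 and 745 with iron in pye-1, against 668 and 591 without iron and 838 and 829 with iron in wild type. For both, the -Fe arrays lay below the +Fe arrays within each genotype. The change of AT1G30870 was -0.30 ± 0.13 in pye-1 and -0.47 ± 0.13 in wild type, of which the second passed with the block (adjusted p = 0.166 without it and 0.0129 with it). AT5G15180 had -0.26 ± 0.13 in pye-1 and -0.41 ± 0.13 in wild type (in wild type adjusted p = 0.318, and 0.0445 with the block). AT2G35380 lay in the opposite direction. It read 1491 and 1022 without iron and 961 and 762 with iron in pye-1, against 1155 and 1244 without iron and 709 and 792 with iron in wild type, so that the -Fe arrays were the higher in each genotype. Its changes were 0.53 ± 0.18 in pye-1 and 0.68 ± 0.18 in wild type (adjusted p = 0.386 and 0.175, and 0.0971 and 0.0264 with the block). In a fit of the 4 wild-type arrays alone the wild-type change also passed (adjusted p = 0.0407).

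**Figure D3:**
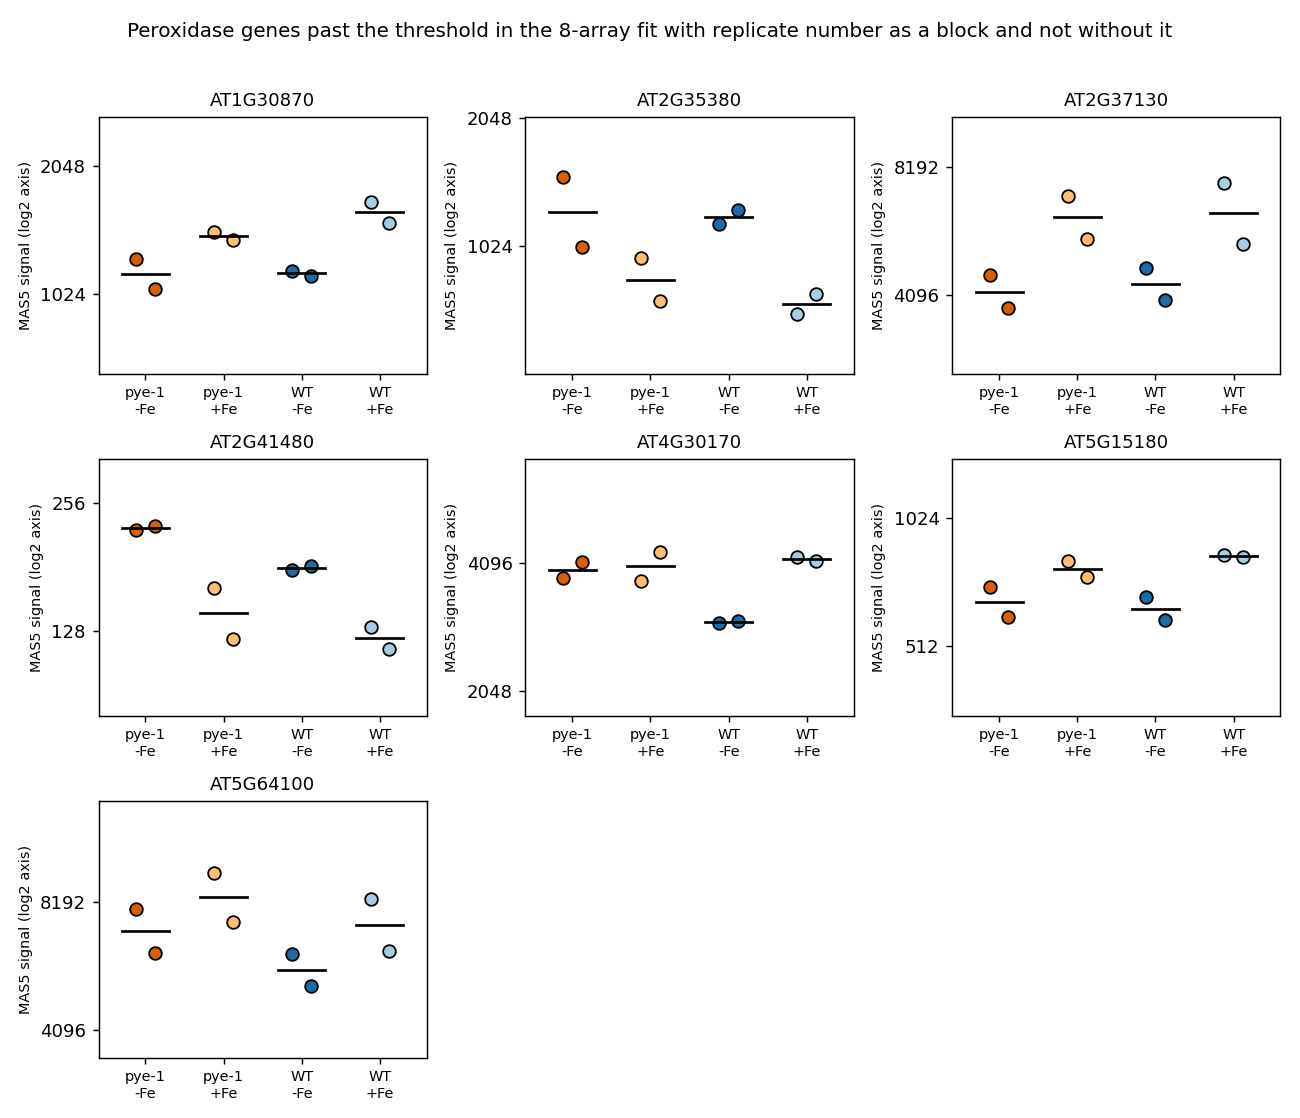
MAS5 signal (y axis, log2 scale, the same 4-fold span in each panel) of the 7 peroxidase loci that passed in the fit of all 8 arrays with replicate number as a block and not without it, on the 2 arrays of each group (x axis, replicate 1 left of replicate 2), with the mean of the log2 signals as a black bar. For AT2G37130 the replicate 1 array is the higher in every group, and AT4G30170 is low in wild type without iron only, at 2965 and 2989.

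Of the 2 peroxidases known to act in root hair growth at low temperature, AT5G64100 had signals of 7878 and 6221 without iron and 9606 and 7339 with iron in pye-1, against 6202 and 5194 without iron and 8334 and 6289 with iron in wild type. Replicate 1 was the higher in every group, and the groups overlapped in pye-1. The change was -0.26 ± 0.19 in pye-1 (adjusted p = 0.796) and -0.35 ± 0.19 in wild type (adjusted p = 0.675, and 0.0300 with the block). The other, AT5G39580, read 323 and 296 without iron and 476 and 225 with iron in pye-1, against 231 and 271 without iron and 558 and 352 with iron in wild type. Its +Fe replicates stood far apart, and the changes of -0.08 ± 0.31 in pye-1 and -0.82 ± 0.31 in wild type did not pass (adjusted p = 0.980 and 0.421). Of the 5 listed root hair peroxidases, AT3G49960 and AT4G26010 are those with a probe set used here.

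Of the 5 peroxidases known to make Casparian strip lignin in the endodermis, 3 were measured and none passed in any comparison. AT1G44970 read 311 and 271 without iron and 293 and 243 with iron in pye-1, against 402 and 325 without iron and 309.5 and 227 with iron in wild type. The media overlapped in pye-1 and not in wild type, with changes of 0.12 ± 0.19 in pye-1 and 0.45 ± 0.19 in wild type (adjusted p = 0.936 and 0.522). AT4G11290 read 629 and 746 without iron and 785 and 679 with iron in pye-1, against 572 and 647 without iron and 537 and 569.9 with iron in wild type, with changes of -0.09 ± 0.14 in pye-1 and 0.14 ± 0.14 in wild type. AT5G66390 (PRX72), which also acts in stem lignin, read 1809 and 1483 without iron and 1739.8 and 1596 with iron in pye-1, against 1740.1 and 1463 without iron and 1674 and 1372 with iron in wild type. Its media overlapped in both genotypes, with changes of -0.03 ± 0.15 in pye-1 and 0.07 ± 0.15 in wild type.

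AT4G11290, AT4G16270 and AT5G17820 are known as genes repressed by UPBEAT1 (UPB1), a transcription factor that sets where root cells pass from division to elongation. AT5G17820 read 3648 and 2968 without iron and 3007 and 2514 with iron in pye-1, against 3199 and 2895 without iron and 2909 and 2774 with iron in wild type, with changes of 0.26 ± 0.14 in pye-1 and 0.10 ± 0.14 in wild type. Its media overlapped in both genotypes. AT4G16270 read 70.7 and 45.9 without iron and 67.3 and 59.1 with iron in pye-1, against 49.9 and 43.8 without iron and 48.0 and 58.4 with iron in wild type, with changes of -0.15 ± 0.28 in pye-1 and -0.18 ± 0.28 in wild type. None of the 3 passed in any comparison in either fit. UPB1 itself read 252 and 275 without iron and 222 and 415 with iron in pye-1, against 157 and 220.3 without iron and 394 and 428 with iron in wild type. Its change was -0.20 ± 0.26 in pye-1 (adjusted p = 0.915) and -1.14 ± 0.26 in wild type, where it missed the threshold and passed with the block (adjusted p = 0.0980 and 0.00253). The UPB1 replicates of pye-1 with iron stood far apart, and the difference between the responses did not pass (0.94 ± 0.37, adjusted p = 0.843).

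Among 6 peroxidases tied to lignin of stem and xylem, 4 were measured and 3 tested. AT2G41480 (PRX25) read 220.4 and 226 without iron and 161 and 123 with iron in pye-1, against 178 and 182 without iron and 131 and 116 with iron in wild type. Both -Fe arrays lay above both +Fe arrays in each genotype. The change was 0.67 ± 0.17 in pye-1 (adjusted p = 0.170, and 0.0414 with the block) and 0.55 ± 0.17 in wild type (adjusted p = 0.305, and 0.0961 with the block). AT2G22420 read 157 and 146 without iron and 167 and 125 with iron in pye-1, against 129.9 and 127 without iron and 105 and 121 with iron in wild type, with changes of 0.07 in pye-1 and 0.19 in wild type that did not pass. PRX52 (AT5G05340) lay under the filter, at 1.38 to 24.1, and was at the control level on 4 of 8 arrays. The pair of peroxidases known for the oxidative burst in the cell wall, PRXCA and PRXCB, had no single-gene probe set.

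Of the other tested members, 17 carry no role in the lists used here and passed in no comparison in either fit. Their iron responses ran from -0.58 to 0.54 in pye-1 and from -1.86 to 0.66 in wild type, and 14 of the 17 in pye-1 and 12 in wild type lay within 0.5 of 0. AT1G49570 set the lower end in wild type. It read 20.4 and 40.4 without iron and 31.2 and 40.6 with iron in pye-1, against 25.7 and 24.9 without iron and 164 and 51.8 with iron in wild type, and 1 array, wild-type replicate 1 with iron, stood above the rest. Its wild-type change of -1.86 ± 0.51 (adjusted p = 0.187) was -1.03 without that array, and passed without wild-type replicate 2 with iron (-2.69). Among the bright members PRXR1 (AT4G21960) read 8800.4 and 7969.7 without iron and 9159 and 7627 with iron in pye-1, against 8666 and 7817 without iron and 9644 and 7639 with iron in wild type. Its changes were 0.00 ± 0.15 in pye-1 and -0.06 ± 0.15 in wild type, and AT3G01190 likewise had 0.03 ± 0.15 and 0.04 ± 0.15. AT1G68850 had changes of 0.54 ± 0.24 in pye-1 and 0.65 ± 0.24 in wild type, neither past the threshold (adjusted p = 0.577 and 0.405).

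In the gene table of the TAIR10.1 assembly, 8 pairs of the 60 loci are next to each other among protein-coding genes, and in 1 pair, Prx37 (AT4G08770) and AT4G08780, both genes were measured. Prx37 read 364 and 445 without iron and 517 and 529.7 with iron in pye-1, against 417 and 307 without iron and 355 and 348 with iron in wild type. AT4G08780 read 77.8 and 79.9 without iron and 111 and 82.1 with iron in pye-1, against 103 and 86.7 without iron and 52.9 and 67.7 with iron in wild type. With iron, both pye-1 arrays lay above both wild-type arrays for each gene, by 0.58 ± 0.17 for Prx37 and 0.68 ± 0.23 for AT4G08780, which did not pass (adjusted p = 0.623 and 0.723). Without iron the differences were 0.17 ± 0.17 and -0.26 ± 0.23. The iron responses of AT4G08780 had opposite signs, -0.28 ± 0.23 in pye-1 and 0.66 ± 0.23 in wild type, and their difference of -0.94 ± 0.33 did not pass (adjusted p = 0.793). Whether the probe sets of this pair also read each other's transcripts was not tested.

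The 7 members under the filter were AT1G24110, AT2G24800, AT3G50990 (PER36), AT4G17690, AT5G05340, AT5G06730 and AT5G58390. Their signals ran from 0.694 to 33.0 over all arrays. AT1G24110 and AT3G50990 were at the control level on each of the 8 arrays, and the others on 3 to 7 of them. With no filter none of the 7 passed in any comparison.

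Comparing pye-1 with wild type asks what the mutation changes on each medium. With iron no member passed in limma (10 of 15922 probe sets, or 0.0628%, did), and 5 members (14.3% of the 35) had an unadjusted p under 0.05, as did 5.63% of all tested probe sets. The replicate block also called none of the members, and 0.345% of all tested probe sets. The widest differences with iron were those of AT1G49570 (-1.37 ± 0.51, and -0.54 without wild-type replicate 1 with iron) and AT1G34510 (-1.14 ± 0.33, adjusted p = 0.581, and 0.126 with the block). For AT1G34510 both pye-1 arrays, at 155 and 76.3, lay below both wild-type arrays, at 285 and 202. Over the 35 tested members the median difference was 0.01, and 0.02 over all probe sets. In 7 members both pye-1 arrays were the higher (20.0% of the tested, against 17.2% of all probe sets), and in 8 both were the lower (22.9%, against 14.5%).

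Without iron, AT3G49960 was higher in pye-1 and no other member passed (0.327% of all tested probe sets were higher and 0.138% lower). Its signal was 76.2 and 77.6 in pye-1 and 10.9 and 25.9 in wild type, and the log2 difference was 2.19 ± 0.34 (adjusted p = 0.0197, replicates 2.81 and 1.58). With signals raised to the control level it was 2.08 (adjusted p = 0.0120). The call was lost without wild-type replicate 1 without iron (1.57, adjusted p = 0.0613) and without either -Fe array of pye-1 (2.21 and 2.18, adjusted p = 0.117 and 0.132). It was also lost without the intensity trend (adjusted p = 0.108) and in a fit of the 4 -Fe arrays alone (adjusted p = 0.106). With iron the same gene differed by -0.26 ± 0.34, and the groups overlapped. With the block AT3G49960 and AT4G30170 passed without iron, both higher in pye-1, where 0.999% of all tested probe sets were higher and 0.716% lower. The median difference of the 35 members without iron was 0.10, against -0.03 over all tested probe sets. In 9 members both pye-1 arrays were the higher (25.7% of the tested, against 15.8% of all probe sets) and in 4 both were the lower (11.4%, against 20.2%).

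The interaction asks whether the iron response differs between the genotypes. No member passed in limma, where 0.0879% of all tested probe sets did, and 6 members (17.1% of the 35) had an unadjusted p under 0.05, as did 5.75% of all tested probe sets. For AT3G49960 the responses differed by 2.46 ± 0.49 (replicates 3.25 and 1.67, adjusted p = 0.225). It was the 1 member to pass with the block (adjusted p = 0.0105), where 0.352% of all tested probe sets passed. AT1G34510 and AT1G49570 had differences of 1.35 ± 0.46 and 1.55 ± 0.73 in the same direction (adjusted p = 0.793 and 0.875, and 0.227 and 0.436 with the block). The members ran from -0.94 for AT4G08780 to 2.46 for AT3G49960, with a median of -0.01 beside -0.04 over all tested probe sets.

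**Figure D4:**
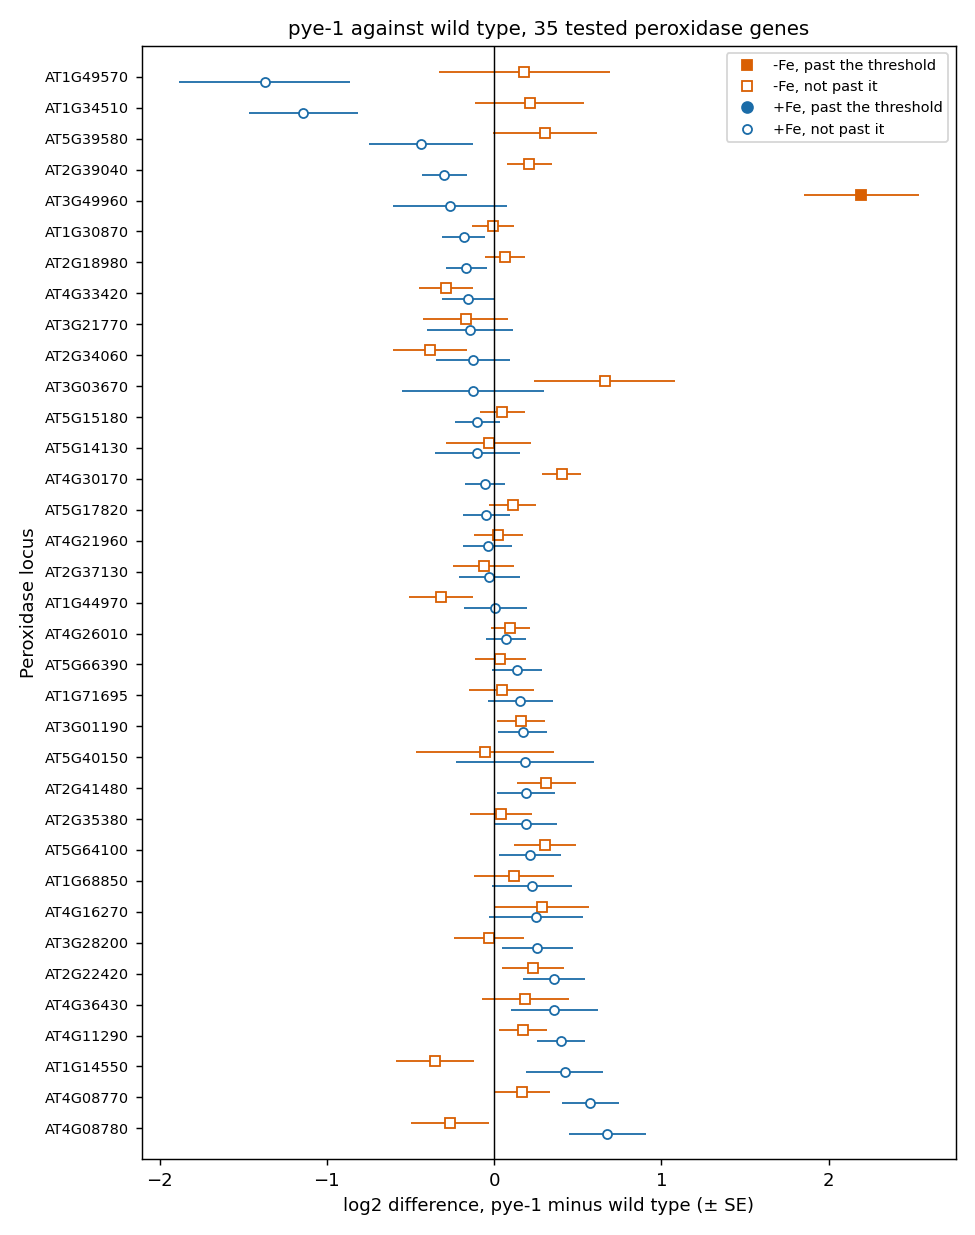
Log2 difference of pye-1 against wild type (x axis, ± SE of the limma fit) for the 35 tested peroxidase loci (y axis), ordered by the difference with iron, with values without iron as squares above values with iron as circles and filled symbols for differences past the threshold. AT3G49960 without iron, at 2.19, is the 1 filled symbol.

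Other enzymes that make or use peroxide were compared by lists that were mostly unmeasured here. Of 10 NADPH oxidases, 3 had a tested probe set (AT1G19230, AT4G25090 and AT4G11230) and none passed in any comparison, with iron responses of 0.05 to 0.35 in pye-1 and -0.28 to -0.05 in wild type. Of 11 ascorbate peroxidases and catalases, which carry heme but are not of class III, 2 were tested. SAPX, a peroxidase that uses ascorbate in plastids and mitochondria, read 914 and 908 without iron and 1115 and 1115 with iron in pye-1, against 550.5 and 492 without iron and 969 and 957 with iron in wild type. The wild-type arrays without iron lay below the other 6. SAPX had a change of -0.29 ± 0.12 in pye-1 (adjusted p = 0.507) and fell in wild type by 0.89 ± 0.12 (adjusted p = 0.00400, and 0.0626 without wild-type replicate 2 without iron). Without iron it was higher in pye-1 than in wild type by 0.81 ± 0.12 (adjusted p = 0.0139). That call was lost without any 1 of the 4 -Fe arrays (adjusted p up to 0.152), and the difference between the responses did not pass (0.60 ± 0.17, adjusted p = 0.598). TAPX, the thylakoid form, had signals from 5.63 to 68.6 and passed in no comparison. Of 17 laccases, which couple lignin monomers with oxygen, LAC16 was tested and passed in none. No glutathione peroxidase-like gene, of 8 listed, had a single-gene probe set.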

How the data were processed

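The 8 one-colour Affymetrix arrays were used as deposited, as linear intensity per probe set, made with MAS5 per the submitters' processing notes. No MAS5 version or genome build was stated in what was used, so no coordinates are printed. MAS5 subtracts mismatch signal, and dim probe sets are therefore noisy. The number of arrays limits the precision.

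Groups and replicate numbers came from the sample titles. Of 22810 probe sets, 64 controls and the 30% of the others with the lowest mean log2 intensity (a mean signal under 23.3) were left out. Names came from the platform annotation, updated through gene IDs to a TAIR10.1 gene table (13513 probe sets with 1 gene, 503 with several, 8730 with none). The log2 intensity, with no pseudocount, was fitted with limma 3.58.1 in R 4.3.3, with 1 mean per group and eBayes with an intensity trend, and the script was tested on simulated data. The labels call the replicates biological.

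Same-numbered arrays deviated together from their group means (correlations of 0.178 to 0.302 over 6 pairs of groups). The labels do not say what the number shares, so it was a block in an alternative. Other alternatives left out each array, the trend or the filter, added a pseudocount of 16, raised signals to the control level, used quantile normalization, or fitted the compared arrays alone.

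The members and lists were chosen with earlier results of these data known. Array values are given for members past the threshold and for measured members of the role lists. Those that passed in the fit of all 8 arrays with the block and not without it, AT1G49570, PRXR1, AT3G01190, AT1G68850 and the neighbouring pair were named after their values were seen.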

Additional observations from a re-analysis of the deposited data

Results flagged for a closer look

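AT3G49960 is listed because its iron response differed between the genotypes in a test of the difference itself, with replicate number as a block. The difference was 2.46 on the log2 scale, with a change of -1.83 in pye-1 and of -4.29 in wild type. Its limma adjusted p was 0.0105 with the block and 0.225 without it, and both replicate numbers showed the same direction (3.25 and 1.67). With signals raised to the control level, under which 1 wild-type array without iron lay, the difference was 2.34 (adjusted p = 0.139). Leaving out 1 array at a time gave 1.83 to 3.08.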

How the results depend on the processing

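Counts of peroxidase members past the threshold depended on how the spread was modelled, as did counts over all tested probe sets. Over all, the iron response gave 485 with the replicate block in wild type (155 without it) and 422 in pye-1 (167 without it). For pye-1 against wild type without iron the block gave 273 (74 without it), and for the interaction 56 (14 without it). Of the members, 10 passed with the block for the iron response in wild type (4 without it) and 5 in pye-1 (3 without it). For pye-1 against wild type without iron 2 members passed (1 without the block), and for the interaction 1 (0 without it). With iron the comparison of the genotypes gave 0 members in each alternative that kept 2 arrays per group. Of all fitted probe sets, 3 (only the arrays compared) to 55 (the block) passed in those fits, against 10 in the main fit. A count of 0 is therefore near the share over all. In pye-1 the count was 1 without the intensity trend and 1 with no filter on low values, where AT4G26010 alone remained. Over all fitted probe sets 99 and 145 passed there, against 167 in the main fit. Fitting the pye-1 arrays alone gave 2 members, AT3G49960 and AT4G26010, where 144 of all tested probe sets passed. For pye-1 against wild type without iron the member count was 0 without the trend and 0 with only the arrays compared. Over all tested probe sets it was 26 and 75, against 74 in the main fit. Fitting the wild-type arrays alone gave 5 members for the iron response in wild type, AT2G35380 being the higher one. Over all tested probe sets 200 passed in that fit, against 155 in the main one. In the fits that left out 1 array, counts moved over all tested probe sets as well as among the members. They are therefore not read as particular to the family. AT3G49960 passed the interaction without wild-type replicate 2 without iron. In wild type the falls of AT3G49960, AT1G34510 and AT4G26010 passed under all 15 alternatives, as did that of AT4G26010 in pye-1. The block removed no call. With 2 numbered replicates in every group, it leaves each change as it was, so no direction could turn. The fits without the trend or the filter, of the compared arrays alone, or without an array outside the comparison also leave it unchanged. Under the other alternatives no change of a member that passed with or without the block turned its direction. A lone array left in a group was assumed to vary like the others. The control level limits the value of AT3G49960 in wild type without iron, and the 7 members under the filter were at it on 3 to 8 arrays.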
